A study of Mus musculus with 24 samples.

Results

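Core genes of the circadian clock and of its direct output, 10 in all, were followed through 2 depots of white fat in male C57BL/6J mice. They are Arntl, Per1, Per2, Per3, Cry1, Nr1d1, Nr1d2, Dbp, Tef and Hlf, taken as a fixed list of symbols that each matched 1 Ensembl identifier, so that 10 of the 49585 gene identifiers counted are described. RNA of whole tissue was sequenced in 24 libraries, and all 10 genes passed the filter on low counts in each of the 7 comparisons. In 1 experiment, on diet, fat from under the skin (subcutaneous adipose tissue, SAT) was taken after 20 weeks on a low-fat diet (10% of energy from fat, n = 4, replicates 1, 3, 5 and 6) or a high-fat diet (60%, n = 4, replicates 3 to 6). In the other, on genotype, every mouse ate the 60% diet for 8 weeks, and SAT (5 wild-type, 3 Azin2-/-) and epigonadal adipose tissue (GAT, 4 wild-type, 4 Azin2-/-) were taken from Azin2-/- mice and wild-type littermates. Not given in the sources used here are the age of the mice, the hour at which tissue was collected and the part of Azin2 that is deleted. Beyond marks and replicate numbers nothing in the labels says that libraries came from separate animals, so p-values measure the spread between these libraries.

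The mammalian clock is a transcriptional feedback loop present in most cells, adipocytes included. Arntl, also called Bmal1, encodes the activator that pairs with CLOCK and binds E-boxes, while the PER and CRY proteins are its targets and feed back as repressors, and the nuclear receptors NR1D1 and NR1D2 (REV-ERB alpha and beta) repress Arntl through ROR response elements. DBP, TEF and HLF are activators of the PAR bZIP family that carry clock time to D-box genes, and in a tissue with a running clock Arntl and Dbp peak at nearly opposite times of day.

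The promoters are shown first because a promoter can carry elements of the kinds through which the loop is wired. Whether the motifs relate to the levels was not tested. The windows run from 250 bases before to 50 after a gene's start (RefSeq, GRCm38.p6), and the table held 12 windows for 9 of the genes, with none for Per2. Each was searched on both strands for the E-box CACGTG, the E-prime box CACGTT, the D-box TTANGTAA and the ROR element TAGGTNA, and matches are in capitals. Coordinates are those of GRCm38, sequences run 5′ to 3′ along the gene's strand, and positions count from the start.
Arntl, window 2 (chr7:113207261-113207560, plus strand): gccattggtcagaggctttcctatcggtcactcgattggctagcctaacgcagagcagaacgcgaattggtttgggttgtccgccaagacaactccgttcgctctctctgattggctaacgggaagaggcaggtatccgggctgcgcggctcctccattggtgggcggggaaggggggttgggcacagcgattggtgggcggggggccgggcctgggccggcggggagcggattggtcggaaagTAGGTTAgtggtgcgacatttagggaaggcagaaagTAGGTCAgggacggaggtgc
Per1, window 1 (chr11:69098699-69098998, plus strand): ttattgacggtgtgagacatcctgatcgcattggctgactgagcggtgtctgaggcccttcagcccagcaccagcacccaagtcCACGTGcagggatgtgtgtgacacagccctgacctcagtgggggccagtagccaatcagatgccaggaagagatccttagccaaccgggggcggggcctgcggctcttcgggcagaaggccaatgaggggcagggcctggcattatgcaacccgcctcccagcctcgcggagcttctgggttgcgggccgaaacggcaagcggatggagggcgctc
Per3 (chr4:151044616-151044915, minus strand): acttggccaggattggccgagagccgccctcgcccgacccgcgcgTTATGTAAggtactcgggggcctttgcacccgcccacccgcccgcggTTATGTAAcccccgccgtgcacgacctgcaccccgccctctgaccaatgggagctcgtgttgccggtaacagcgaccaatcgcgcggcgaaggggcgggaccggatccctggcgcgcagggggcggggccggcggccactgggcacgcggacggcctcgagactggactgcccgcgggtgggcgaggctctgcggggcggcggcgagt
Cry1 (chr10:85185005-85185304, minus strand): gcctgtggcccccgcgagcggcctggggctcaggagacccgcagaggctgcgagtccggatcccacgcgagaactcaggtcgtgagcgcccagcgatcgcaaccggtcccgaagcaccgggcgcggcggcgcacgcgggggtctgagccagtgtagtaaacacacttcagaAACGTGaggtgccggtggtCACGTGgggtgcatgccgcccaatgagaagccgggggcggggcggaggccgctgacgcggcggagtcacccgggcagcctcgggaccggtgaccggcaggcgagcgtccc
Tef, window 1 (chr15:81802423-81802722, plus strand): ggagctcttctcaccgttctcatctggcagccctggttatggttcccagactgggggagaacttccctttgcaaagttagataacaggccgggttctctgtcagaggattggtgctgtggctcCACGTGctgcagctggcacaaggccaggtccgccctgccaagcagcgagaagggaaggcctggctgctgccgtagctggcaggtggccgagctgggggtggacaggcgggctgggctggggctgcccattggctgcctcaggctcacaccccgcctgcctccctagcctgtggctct

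In the Arntl window, ROR elements began at -6 (TAGGTTA) and 31 (TAGGTCA). Per3, the Period gene whose product is the least needed for rhythm, held a D-box (TTATGTAA) at -205 and another at -158. Cry1, a repressor of the loop, held an E-box at -60 and an E-prime box at -79, while the E-boxes of Per1 and Tef began at -166 and -127. The second Tef window held an E-box at -138 and the Nr1d1 window an E-prime box at -28. The second Per1 window and the windows of Nr1d2, Dbp and Hlf held none of the 4 motifs. Of 32851 RefSeq windows of the same length, 7.15% held an E-box, 4.68% an E-prime box, 2.32% a D-box and 8.29% a ROR element. A match describes letters in the window and no binding was measured.

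Each library held between 31.96 and 46.62 megareads of counts. Levels below are normalised CPM (CPM, counts scaled to the library size after TMM normalisation over all 24 libraries). The exceptions are Hoxc10, Tbx15 and the sums over muscle, epididymis, adipocyte and macrophage genes, which are CPM of total counts without TMM. Azin2 was lower in Azin2-/- than in wild-type tissue, at means of 10.4 against 20.3 CPM in SAT (log2 fold change -0.97, edgeR adjusted p = 0.244) and 14.8 against 24.4 CPM in GAT (-0.74, adjusted p = 0.0408). The library labelled low-fat SAT replicate 1 went against its depot: 14 epididymis genes summed to 52860 CPM, and its Hoxc10 and Tbx15, defining factors of subcutaneous fat, lay at 0.0469 and 0.117 CPM. GAT wild-type replicate 3 held 4607 CPM of the same epididymis genes and every other library at most 1.076. The 16 skeletal muscle genes summed to 76200 CPM in Azin2-/- SAT replicate 2, 68280 in wild-type SAT replicate 3, 25320 in low-fat replicate 5, 7170 in high-fat replicate 6 and 1283 in low-fat replicate 6, against 43.31 to 279.7 elsewhere. The 10 adipocyte genes summed to 8735 CPM in low-fat replicate 1 and to 22460 to 38860 in the other libraries. In bulk tissue, fewer cells of a type and less RNA per cell cannot be told apart.

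Between the 2 experiments the ranges of 3 of the 10 genes, Dbp, Arntl and Nr1d2, did not overlap, while those of the other 7 did. Dbp ranged from 8.41 to 18.6 CPM in the 8 diet-experiment libraries and from 40.0 to 207 CPM in the 16 genotype-experiment libraries. Arntl went the opposite way, with 22.0 to 51.6 CPM in the diet experiment and 7.22 to 15.7 CPM in the genotype experiment. Nr1d2, the second REV-ERB, held 35.7 to 67.2 against 73.5 to 155 CPM. Over all 18976 genes that passed the filter, 0.522% were separated in this way. Within SAT alone Nr1d1 joined them, with 70.6 to 214 against 226 to 428 CPM, which made 4 of 10 against 1.43% of all genes. Of these gaps, low-fat replicate 1 bounds only that of Arntl, at 22.0 CPM. Leaving out a library can never narrow a gap between ranges, so doing so is no check on them. The experiments differ in weeks on diet, in the mice and possibly in the hour of collection, and these cannot be told apart.

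**Figure D1:**
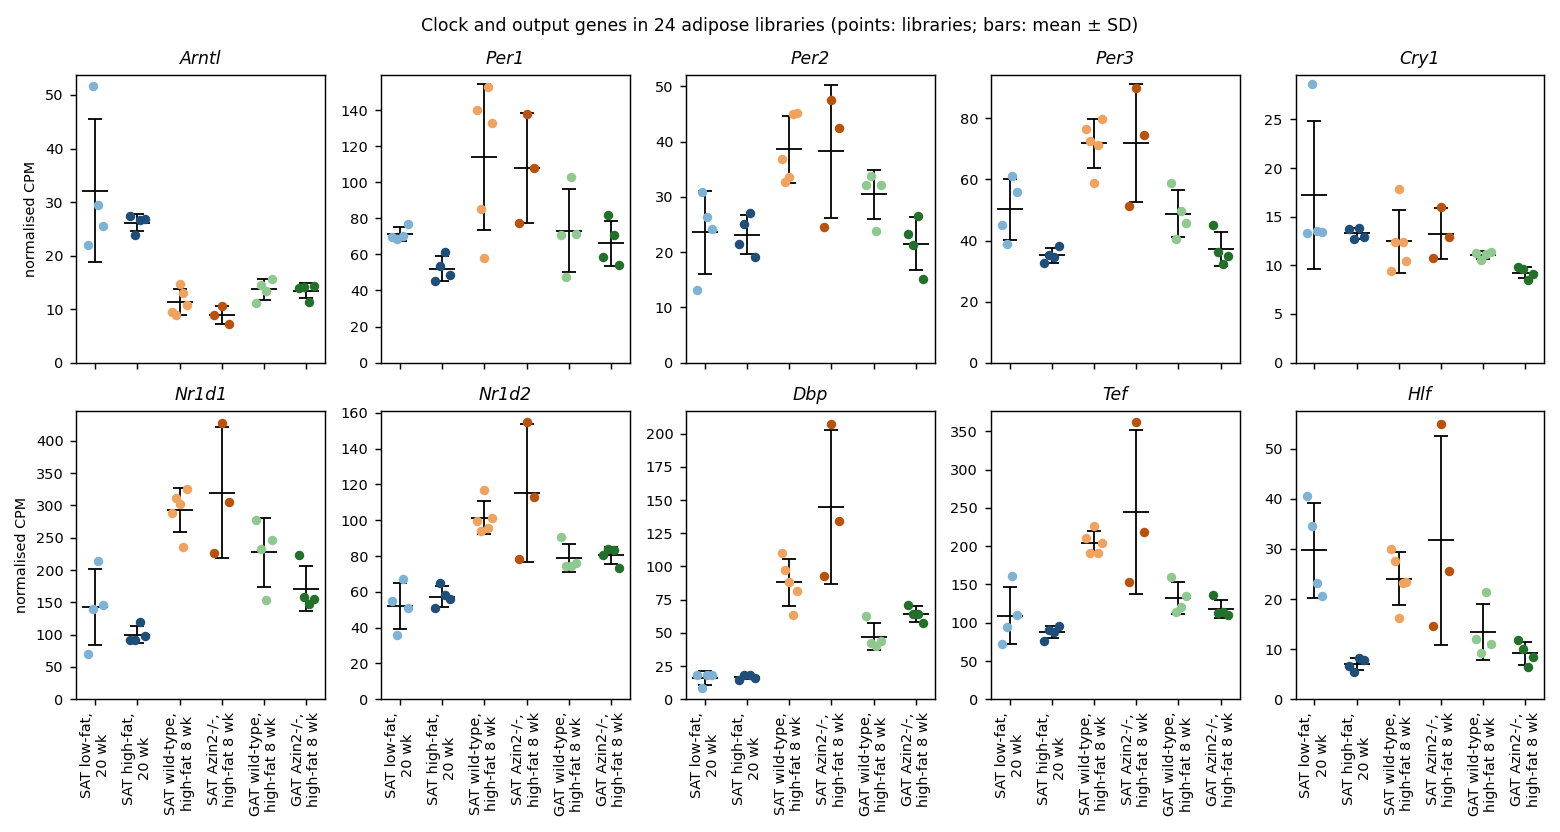
Normalised CPM (linear axes from 0) of each of the 10 genes in all 24 libraries, by group, with 1 point per library and bars at the group mean and SD. Dbp and Nr1d2 lie lower and Arntl higher in all 8 libraries of the diet experiment than in the 16 of the genotype experiment.

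The comparison that matches diet and depot across the experiments set SAT after 20 weeks of high-fat diet (4 libraries) against wild-type SAT after 8 weeks (5 libraries). Of the 10 genes, 8 were lower and 1 higher at 20 weeks, beside a background of 39.0% of all tested genes called in either direction, 19.5% lower and 19.6% higher. The median log2 fold change was -1.08 for the 10 genes and -0.04 for all tested genes.

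Dbp, a first-line output of the clock, held 14.7, 18.4, 18.2 and 15.8 CPM in high-fat replicates 3 to 6 and 110, 97.5, 88.6, 63.2 and 81.4 CPM in wild-type replicates 1 to 5. The groups were separated by a wide gap, and Dbp was 5.26-fold lower at 20 weeks (log2 fold change -2.39, SE 0.156, edgeR adjusted p = 2.17e-05). Arntl, the activator of the loop, held 27.4, 23.9, 26.6 and 26.8 CPM at 20 weeks against 9.52, 8.90, 14.7, 13 and 10.8 CPM at 8 weeks. Every 20-week library lay above every 8-week one, and Arntl was 2.30-fold higher at 20 weeks (1.20, SE 0.143, edgeR adjusted p = 0.000232).

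The REV-ERB repressors were both lower at 20 weeks. Nr1d1 held 91.3, 91.4, 119 and 97.4 CPM against 289, 311, 302, 236 and 325 CPM, 2.93-fold lower (log2 -1.55, SE 0.116), and Nr1d2 was 1.77-fold lower (-0.82, SE 0.0884). Nr1d1 shares 263 exonic bases with Thra on the other strand, and Dbp shares 539 with Sphk2. How reads in these shared bases were counted is not stated.

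The other PAR bZIP factors followed Dbp. Hlf held 6.71, 5.48, 8.20 and 7.89 CPM at 20 weeks and 30, 27.6, 16.3, 23.1 and 23.3 CPM at 8 weeks. It was 3.39-fold lower at 20 weeks with no overlap (log2 -1.76, SE 0.185, edgeR adjusted p = 0.000131). Tef was 2.33-fold lower (-1.22, SE 0.0852), at 76.5 to 96.3 against 191 to 227 CPM.

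Among the repressors of the loop, Per1 had a log2 fold change of -1.13 (SE 0.277, edgeR adjusted p = 0.0122), Per3 of -1.03 (SE 0.0899) and Per2 of -0.74 (SE 0.133, adjusted p = 0.0021), all lower at 20 weeks. The groups did not overlap for Per2 and Per3, nor for Arntl, Nr1d1, Nr1d2, Dbp, Tef and Hlf. That held for 35.5% of all tested genes. Those of Per1 overlapped, since wild-type SAT replicate 3, the library rich in muscle transcripts, held 57.9 CPM while the other 4 wild-type libraries held 85.2 to 153. Cry1 was the one gene that did not pass, with 12.7 to 13.8 CPM at 20 weeks and 9.45 to 17.8 CPM at 8 weeks (0.09, SE 0.165, adjusted p = 0.684). The count of 9 called genes was 9 in every alternative fit and whichever library was left out. Macrophage sums were higher at 20 weeks as well, at 1660 to 2103 against 585.4 to 1184 CPM, and their part was not tested.

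Of 18 other clock genes, 3 were higher and 5 lower at 20 weeks, and of 12 other output genes 4 were higher and 3 lower. Npas2, which can replace CLOCK as Arntl's partner, was higher by 1.71 on the log2 scale (edgeR adjusted p = 0.000224), in the direction of Arntl. Noct, a rhythmic deadenylase-family gene, was higher by 1.06, Lonrf3 by 2.37 and Gys2, the liver-type glycogen synthase, by 1.36. Por, the electron donor of cytochrome P450 enzymes, was lower by 1.02 and Tspan4, a tetraspanin, by 0.78. Among 10 genes induced by glucocorticoids, which are themselves rhythmic, 1 was higher and 3 lower, and of 8 immediate early genes, which respond to handling and stress, 3 were higher and 0 lower. In the same comparison 39.0% of all tested genes were called, so the shares of the other clock, glucocorticoid and immediate early genes lay near that background.

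**Figure D2:**
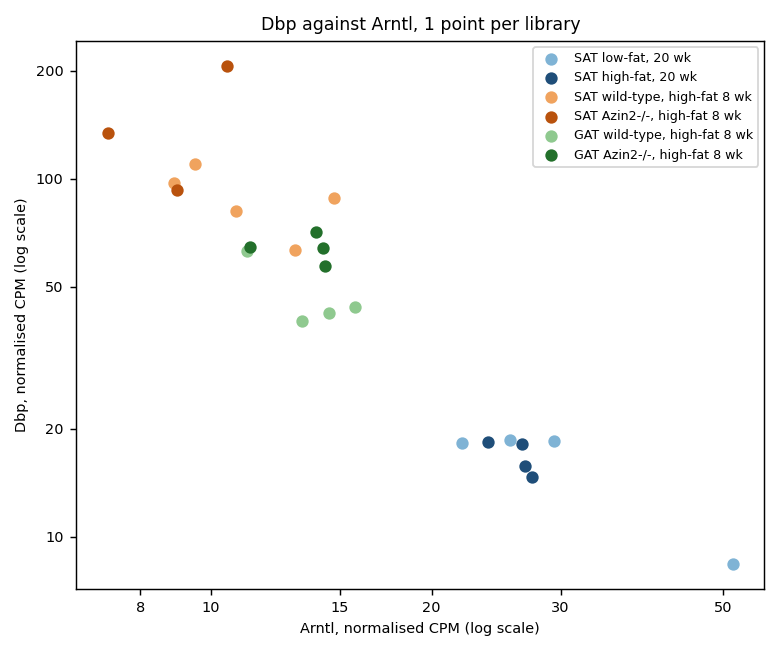
Dbp against Arntl in normalised CPM, both on log axes, with 1 point per library coloured by group. The diet-experiment libraries lie at Arntl of 22.0 CPM or more and Dbp of 18.6 CPM or less, the genotype-experiment libraries at Arntl of 15.7 CPM or less and Dbp of 40.0 CPM or more.

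The ratio of Dbp to Arntl within a library does not depend on library scaling. Its log2 averaged -1 ± 1.09 in low-fat SAT and -0.65 ± 0.23 in high-fat SAT (SD, n = 4 each). It averaged 2.95 ± 0.54 in wild-type SAT (n = 5), 3.96 ± 0.51 in Azin2-/- SAT (n = 3), 1.77 ± 0.48 in wild-type GAT and 2.26 ± 0.22 in Azin2-/- GAT (n = 4 each). The highest ratio of the diet experiment was -0.26 and the lowest of the genotype experiment 1.48, so the sign of the ratio alone separated the experiments. Compared per kilobase of exon, Nr1d1 had the highest mean level of the 10 in each group, from 32.4 CPM per kb in high-fat SAT to 104 in Azin2-/- SAT. Arntl lay at 1.18 to 4.27 CPM per kb.

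The second question was what the diets themselves changed after 20 weeks in SAT. Of the 10 genes, 3 were called, all lower on the high-fat diet, beside a background of 21.2% of all tested genes in either direction and 10.4% lower. The groups were also apart for these 3 genes, as they were for 33.6% of all tested genes.

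Hlf differed most. It held 40.6, 34.6, 23.2 and 20.6 CPM in low-fat replicates 1, 3, 5 and 6 and 6.71, 5.48, 8.20 and 7.89 CPM in high-fat replicates 3 to 6. Every high-fat library lay below every low-fat one, and Hlf was 4.27-fold lower (log2 -2.10, SE 0.259, edgeR adjusted p = 0.0022). Without low-fat replicate 1, the library that went against its label, the value was -1.89 (adjusted p = 0.000311), and Hlf was called whichever library was left out.

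Per1 held 69.6, 68.4, 70.1 and 76.8 CPM on the low-fat diet and 45.2, 53.4, 61.2 and 48.4 CPM on the high-fat diet, a 1.39-fold difference (log2 -0.47, SE 0.100, adjusted p = 0.0153). Per3 held 45.0, 39.0, 61.0 and 55.9 against 32.5, 35.1, 34.7 and 38.1 CPM (-0.53, SE 0.141, adjusted p = 0.0335). Both groups were apart by a narrow margin, 39.0 against 38.1 CPM for Per3. Per1 was no longer called without high-fat replicate 3, 4 or 6 (log2 -0.48 to -0.41, adjusted p up to 0.0604), and Per3 without any of the 4 high-fat replicates or low-fat replicate 5 or 6 (-0.56 to -0.42, up to 0.103), so that the folds stayed close to those with all libraries. Without all libraries rich in muscle transcripts, which leaves low-fat replicates 1 and 3 on the low-fat side, Per1 was at -0.39 (adjusted p = 0.197) and Per3 at -0.31 (0.183). Without low-fat replicates 1 and 5 and high-fat replicate 6, they were at -0.45 (0.0305) and -0.48 (0.0470).

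The other 7 genes did not pass. Nr1d1 held 70.6, 140, 214 and 146 CPM on the low-fat diet, where replicate 1 was the lowest, and 91.3, 91.4, 119 and 97.4 CPM on the high-fat diet (log2 -0.52, SE 0.286, adjusted p = 0.22). Without low-fat replicate 1 it was called, at -0.74 (adjusted p = 0.00648), which brought the count to 4 of 10. The count over all genes rose more steeply, from 3622 of 17066 tested with all libraries to 8109 without that library. Without low-fat replicate 5, rich in muscle transcripts, Nr1d1 was at -0.26 (adjusted p = 0.497), and without all muscle-rich libraries at -0.08 (0.891). Tef, with values of 71.7, 95.1, 161 and 110 CPM on the low-fat diet, was at -0.33 (SE 0.221) with all libraries, -0.48 (adjusted p = 0.055) without low-fat replicate 1, -0.08 (0.744) without low-fat replicate 5 and 0.02 (0.959) without all muscle-rich libraries.

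Dbp and Arntl, which separated the experiments, did not separate the diets. Dbp held 18.3, 8.41, 18.5 and 18.6 CPM in low-fat replicates 1, 3, 5 and 6, so that all but replicate 3 lay close to the high-fat range of 14.7 to 18.4 CPM (log2 0.05, SE 0.253, adjusted p = 0.898). Arntl held 22.0, 51.6, 29.4 and 25.6 CPM (-0.31, SE 0.248, adjusted p = 0.392). Low-fat replicate 3 thus had the highest Arntl and the lowest Dbp of all 24 libraries, and also the highest Cry1 (28.6 CPM, against 13.3 to 13.5 in the other low-fat libraries) and the lowest Nr1d2 (35.7 CPM). Its muscle and epididymis sums were 88.61 and 0.4839 CPM. Macrophage genes summed to 372.5 to 591.9 CPM on the low-fat diet and 1660 to 2103 CPM on the high-fat diet, and their part in these values was not tested.

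Of the 12 other output genes tested between the diets, Gys2 (0.94, edgeR adjusted p = 0.01) and Tubb2a (0.80, adjusted p = 0.0448), a beta-tubulin, were higher on the high-fat diet and none lower. Among the glucocorticoid genes 1 was higher, and of the immediate early genes 2 were higher, beside 10.8% of all tested genes.

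**Figure D3:**
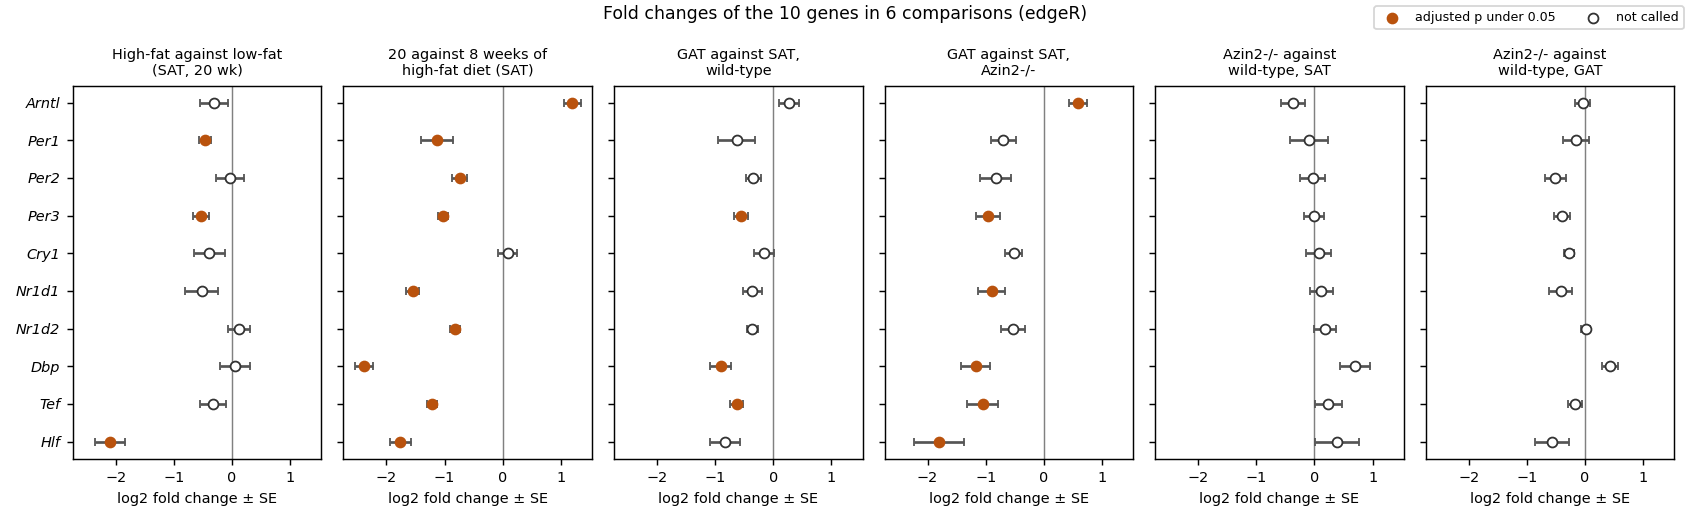
Log2 fold change with its SE for each of the 10 genes in 6 comparisons from edgeR, with filled points for adjusted p under 0.05. The 20 against 8 week comparison has 9 filled points, the diet comparison 3, the depot comparisons 3 and 6, and the genotype comparisons none.

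The third comparison set GAT against SAT, separately in wild-type (4 against 5 libraries) and Azin2-/- mice (4 against 3), which share no library with each other. In wild-type mice 3 of 10 genes were called, all lower in GAT, beside 4.33% of all tested genes in either direction, 1.87% lower and 2.47% higher. In Azin2-/- mice 5 were lower and 1 higher, beside 15.2% in either direction, 6.04% lower and 9.13% higher. Dbp, Tef and Per3 were lower in GAT in both genotypes, and the wild-type SAT libraries are also those of the 20 against 8 week comparison.

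Dbp held 62.7, 42.2, 40.0 and 43.9 CPM in wild-type GAT replicates 1 to 4. All lay below the 63.2 to 110 CPM of wild-type SAT, replicate 1 by a narrow margin. The log2 fold change of Dbp was -0.90 (SE 0.180, edgeR adjusted p = 0.0253). In Azin2-/- mice Dbp held 71.2, 64.2, 64.5 and 57.1 CPM in GAT and 92.9, 207 and 134 CPM in SAT (-1.17, SE 0.247, adjusted p = 0.0262).

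Tef held 160, 114, 120 and 135 CPM in wild-type GAT against 211, 191, 227, 191 and 204 CPM in SAT (-0.63, SE 0.110, adjusted p = 0.0147), again without overlap. In Azin2-/- mice it held 136, 113, 114 and 110 against 153, 362 and 219 CPM (-1.05, SE 0.267, edgeR adjusted p = 0.0409). The depots did not overlap for 10.5% of all tested genes in wild-type and 31.2% in Azin2-/- mice. Per3 followed, at -0.56 (SE 0.122, adjusted p = 0.0353) in wild-type and -0.96 (SE 0.200, adjusted p = 0.026) in Azin2-/- mice, with 40.6 to 58.8 and 32.4 to 45.2 CPM in GAT. Per3 lies on chromosome 4 as Azin2 does, 22.07 Mb away.

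Hlf and Nr1d1 passed only the test in Azin2-/- mice, and edgeR's test of the difference between the genotypes called neither. Hlf held 11.8, 10.0, 6.37 and 8.39 CPM in Azin2-/- GAT and 14.6, 55.0 and 25.6 CPM in SAT (log2 -1.80, SE 0.432, adjusted p = 0.0355). In wild-type mice it was at -0.83 (SE 0.264, adjusted p = 0.116), where GAT replicate 3, the library with epididymis transcripts, held 21.5 CPM and the other 3 held 9.15 to 12. Without that library Hlf passed there too, at -1.16 (adjusted p = 0.0147). Nr1d1 was at -0.90 (adjusted p = 0.0457) in Azin2-/- and -0.36 (adjusted p = 0.233) in wild-type mice.

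Arntl was the 1 gene higher in GAT, with 13.9, 14.2, 11.3 and 14.3 CPM in Azin2-/- GAT against 8.98, 10.5 and 7.22 CPM in SAT (log2 0.59, SE 0.159, adjusted p = 0.0475). In wild-type mice it was at 0.27 (SE 0.169, adjusted p = 0.374). Per1, Per2, Cry1 and Nr1d2 had log2 values of -0.63 to -0.16 in wild-type and -0.83 to -0.52 in Azin2-/- mice and were not called. Without the muscle-rich SAT libraries, the wild-type count stayed at 3 and the Azin2-/- count was 5, with Dbp at -0.82 and Hlf at -1.13 in Azin2-/- mice. That fit kept only replicates 1 and 3 of Azin2-/- SAT. The share of all genes called without the muscle-rich libraries is not given here.

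These depot counts rested on few libraries. In wild-type mice the count was 0 without GAT replicate 2, 1 without GAT replicate 4 or SAT replicate 1 or 5, and at most 4. In Azin2-/- mice it was 0 without GAT replicate 2, 3 or 4 or SAT replicate 3, and 9 without SAT replicate 1. The calls over all genes moved as well, from 296 to 909 in wild-type and from 36 to 3414 in Azin2-/- mice. No fold change of Dbp, Tef, Per3 or Hlf changed sign: Dbp ranged from -1.06 to -0.81 in wild-type and from -1.41 to -0.82 in Azin2-/- mice.

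In the titles, 5 animal marks occur in both depots, and whether equal marks mean the same mouse is not stated. The depot tests above treated all libraries as separate. With a block for the mark, Dbp, Tef and Per3 were not called in wild-type mice. The same libraries without the block gave no calls there either. In Azin2-/- mice Per3 and Hlf kept their calls under the block, while Dbp, Tef, Nr1d1 and Arntl did not. Per1, Per3, Nr1d1, Nr1d2, Dbp, Tef and Hlf were lower in the GAT than in the SAT library at 5 of 5 marks. The share of all genes lower at 5 of 5 marks is not given here. Both SAT libraries marked LR were rich in muscle transcripts, and the wild-type GAT library marked no was rich in epididymis transcripts. The log2 difference of Dbp ran from -1.69 to -0.64, that of Tef from -1.68 to -0.26 and that of Hlf from -2.46 to -0.12. The most negative value of each came from mark LR in Azin2-/- mice, and the -0.12 of Hlf from mark no in wild-type mice. Arntl was higher in GAT at 4 of 5 marks, from -0.01 to 0.65.

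**Figure D4:**
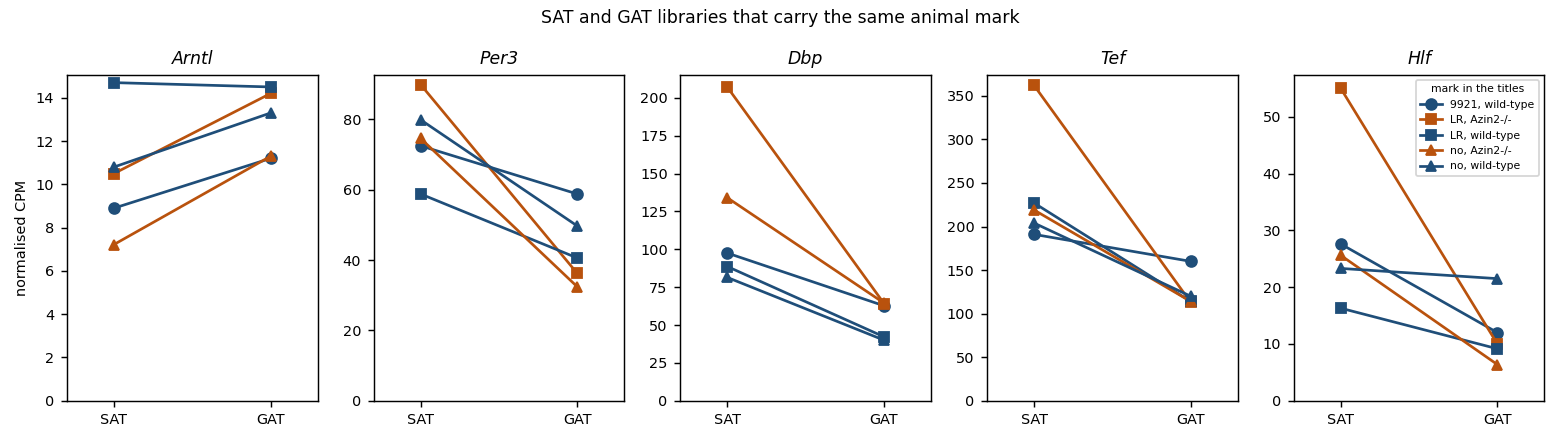
Normalised CPM (linear axes from 0) of Arntl, Per3, Dbp, Tef and Hlf in SAT and GAT libraries that carry the same animal mark, 1 line per mark coloured by genotype. The Dbp and Tef lines fall from SAT to GAT at 5 of 5 marks, while Arntl rises at 4 of 5.

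Rorb, a receptor of the ROR family, was the only one of the 18 other clock genes called between depots in wild-type mice (log2 -3.68, edgeR adjusted p = 0.0143), and none of the 12 other output genes was. In Azin2-/- mice Npas2 was higher in GAT (1.15, adjusted p = 0.0264), as Arntl was, and Cry2 (-0.59) and Rora (-0.79), the ROR that activates Arntl, were lower. Of the output genes there, Lonrf3 was higher (2.26) and Por lower (-0.83). Among glucocorticoid genes 2 were higher and 1 lower in GAT in each genotype, Klf9 being the lower one (-0.51 and -0.85). Of the immediate early genes 1 was higher in wild-type and 3 in Azin2-/- mice.

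The fourth question was whether loss of Azin2, an inhibitor of the antizymes that restrain polyamine synthesis, moved the clock genes. In SAT 0 of 10 were called by edgeR, beside 0.0059% of all genes (1 gene). At an unadjusted p under 0.05 there was 1, and DESeq2 and limma-voom called 0. That 1 was Dbp, with 92.9, 207 and 134 CPM in Azin2-/- against 63.2 to 110 CPM in wild-type SAT, overlapping at its lowest library (log2 0.70, SE 0.254, adjusted p = 0.426). The groups of all 10 genes overlapped, while those of 7.24% of all tested genes did not. Azin2-/- SAT replicate 2, the library with the most muscle transcripts, had the highest Dbp, Tef, Nr1d1, Nr1d2, Hlf, Per2 and Per3 of all 24 libraries. Without it Dbp was at 0.36, and Hlf moved from 0.39 to -0.26.

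In GAT 0 of 10 were called, beside 6.77% of all tested genes, 5.45% higher and 1.32% lower. At an unadjusted p under 0.05 there were 4: Cry1 (log2 -0.28, SE 0.0901, edgeR adjusted p = 0.0938), Dbp (0.43, SE 0.145, adjusted p = 0.1), Per2 (-0.51, adjusted p = 0.109) and Per3 (-0.40, adjusted p = 0.11). Cry1 held 9.82, 9.59, 8.48 and 9.15 CPM in Azin2-/- and 11.3, 10.5, 11.2 and 11.4 CPM in wild-type GAT, and was the 1 gene of the 10 whose groups did not overlap, as for 14.6% of all tested genes. DESeq2 called Cry1, Dbp and Per2, and limma-voom called those and Per3 and Nr1d1. Both methods also called more of all genes than edgeR did, so these counts cannot be set against the 6.77%. Their own counts over all genes are given in the last section. The share of all genes at an unadjusted p under 0.05 is not given here for either depot. Dbp was called by edgeR at 0.60 (adjusted p = 0.0328) without wild-type replicate 1, the highest of its group at 62.7 CPM. Per3 was called at -0.52 (0.0297) without Azin2-/- replicate 1, the highest of its group at 45.2 CPM.

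Macrophage genes summed to 2127 to 4532 CPM in Azin2-/- GAT and 1131 to 1761 CPM in wild-type GAT, with all 10 genes of the list measured, and their part in these values was not tested. Of the other clock genes, Bhlhe40, a repressor of CLOCK and ARNTL activity, was higher in Azin2-/- GAT (0.95, edgeR adjusted p = 0.0431), and of the other output genes Lonrf3 was (1.60, adjusted p = 0.0408). Of the immediate early genes 1 was higher, and of the glucocorticoid genes 0 passed. In SAT 0 genes of these 4 lists passed.

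Whether the genotype effect differed between the depots was tested directly. It called 0 of 10 genes, beside 0% of the 18033 tested, and 0 of the 10 had an unadjusted p under 0.05. DESeq2 also called 0 of the 10, and limma-voom 1, Nr1d1 (log2 -0.62, adjusted p = 0.0289). Over all genes, too, limma-voom called more than edgeR did in this test, and 1 of 10 is no more than its share of all genes. The edgeR value with the largest size was that of Hlf, -0.96 with an SE of 0.514. None of the 4 other lists held a called gene.

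Pooled over the groups, the median within-group SD of log2 CPM was 0.3348 for the 10 genes and 0.3444 for all genes past the filter. By group the medians were 0.479 against 0.283 in Azin2-/- SAT, 0.511 against 0.423 in low-fat SAT, 0.263 against 0.242 in wild-type SAT and 0.149 against 0.136 in high-fat SAT. They were 0.183 against 0.192 in Azin2-/- GAT and 0.226 against 0.267 in wild-type GAT. Hlf varied most (0.4944), with Per3 (0.2382) and Nr1d2 (0.2504) the steadiest. The low-fat libraries spread widely in Nr1d1 (0.666), Arntl (0.535) and Dbp (0.566). For Arntl, high-fat SAT was the group with the smallest spread (0.0878).

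How the genes moved together between libraries of the same group was described by Pearson's r of log2 CPM after each group's mean was removed, over 24 libraries. All genes of a library share its depth and tissue makeup, which differ between libraries. Dbp and Arntl ran opposite (r = -0.57), and more so over the 17 libraries without muscle or epididymis transcripts (-0.84). Per3 and Tef ran together (0.75 and 0.94). Among 12695 other genes, those most like Dbp were Nr1d2 (0.84, and 0.68 over the 17), Per3 (0.70 and 0.69), Zxdc (0.69 and 0.72), Zfp568 (0.67 and 0.40) and Tbccd1 (0.65 and 0.51), and 2 of these 5 are clock genes of the list. Among the most opposed to Dbp were Dtx4 (-0.83 and -0.64), Gabre (-0.71 and -0.52), Arrdc4 (-0.71 and -0.64) and Resf1 (-0.71 and -0.53).

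Arntl was most like Cry1 (0.78), Zfr (0.77, and 0.46 over the 17), Ddx24 (0.77 and 0.34), Ccdc117 (0.77 and 0.43) and Dnajb2 (0.76 and 0.54). It was most opposed to Id2 (-0.73 and -0.36), P2ry12 (-0.73 and -0.23), Bora (-0.72 and -0.51), Tedc1 (-0.72 and -0.39) and Zfpl1 (-0.70 and -0.45), all weaker over the 17 libraries. The likeness to Cry1 fell to 0.14 over the 17 libraries, where low-fat replicate 3, the highest of both genes, is the only library of its group and so adds nothing to r.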

How the data were processed

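RNA of whole SAT and GAT was measured by stranded total RNA sequencing in 24 mouse libraries. The values the authors deposited are raw counts per Ensembl gene. The submitters' processing notes name GRCm38 (mm10), cutadapt, STAR and HTSeq 0.6.1p1. Strand setting, counting mode and annotation are not stated. Of 49585 identifiers 49326 were in GENCODE M21, which supplied symbols, positions and exon lengths, and the 259 others held 0.0103% of counts.

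The 10 genes and all gene lists were chosen with earlier results of these data known. Each comparison was fitted on its own groups with edgeR 4.0.16 (R 4.3.3): filterByExpr (minimum count 10, total 15), TMM, robust quasi-likelihood test, and Benjamini-Hochberg adjustment over all tested genes, with a gene called at an adjusted p under 0.05. The SE is the log2 fold change divided by the root of its F statistic. The difference between depots was fitted on the 4 groups of the genotype experiment together. Positive values mean higher on the high-fat diet, at 20 weeks, in GAT or in Azin2-/-. No 2 libraries of a group agreed within sampling noise. At depths of 31.96 to 46.62 megareads the 10 genes had 202 to 14972 counts per library.

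All 10 genes are named in each comparison whatever their p. The lists of other clock and output genes give at most 6 called genes per comparison, by smallest p. The genes most like Dbp and Arntl were taken by r among genes whose mean log2 CPM was 1 or more (prior count 2). Libraries were called rich in muscle or epididymis transcripts above a summed 1000 CPM. Alternatives were DESeq2 1.42.0 size factors, its Wald test, limma-voom 3.58.1 with quality weights, a fit without the low-count filter, 1 fit of all 24 libraries, a block for replicate number or mark, and leaving out each library or those rich in muscle or epididymis transcripts. The edgeR script was tested on simulated data. Values of 2 other genes that these rules name are not reported here.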

Additional observations from a re-analysis of the deposited data

Results flagged for a closer look

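Within groups of 4 or 5 libraries, 8 of 50 tests of the 10 genes set 1 library apart. The measure was the gap to its nearest neighbour relative to the group's range (Dixon's 95% value), where chance sets apart about 1 in 20 groups. The tests are not independent, since genes of the list moved together within groups. The share over all genes is not given here, so no excess in the 10 genes is shown. Low-fat SAT replicate 3 was set apart by Cry1 at 28.6 normalised CPM against 13.3 to 13.5 in the other libraries and by Dbp at 8.41 against 18.3 to 18.6. Wild-type GAT replicate 1 was high in Dbp, at 62.7 against 40.0 to 43.9, and in Nr1d2, at 90.7 against 74.3 to 76.3. Azin2-/- GAT replicate 1 was high in Nr1d1, at 223 against 147 to 159, and in Tef, at 136 against 110 to 114. Its Azin2, at 19.8 CPM of total counts without TMM, was the highest of its group. Wild-type GAT replicate 3, the library with epididymis transcripts, was low in Per2, at 23.9 against 32.1 to 33.7. Arntl was low in Azin2-/- GAT replicate 3, at 11.3 against 13.9 to 14.3.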

How the results depend on the processing

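Among the 10 genes no called fold change turned its sign under any alternative. The count of called genes was 9 in the 20 against 8 week comparison throughout, also when each library was left out (9 to 9). With each library left out, the count ran from 1 to 4 for diet, 0 to 0 for genotype in SAT, 0 to 1 for genotype in GAT, 0 to 4 and 0 to 9 for depot in wild-type and Azin2-/- mice, and 0 to 0 for the difference between depots. limma-voom gave 5 for diet, 5 for genotype in GAT, 7 and 10 for depot in wild-type and Azin2-/- mice, and 1 for the difference. The DESeq2 Wald test gave 3 for genotype in GAT and 5 for depot in wild-type mice. Without the low-count filter the depot count in Azin2-/- mice was 2, with all 24 libraries in 1 fit that in wild-type mice was 1, and without muscle-rich libraries that for diet was 1. The cause of these shifts was not tested.

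For libraries with equal replicate numbers or marks, the correlation of deviations from the group means ran from -0.20 to 0.23. The exceptions were 0.75 (mark LR) and 0.40 (mark no) for the 2 shared marks of genotype in SAT. The SAT libraries marked LR are the 2 richest in muscle transcripts. With so few libraries per group, these correlations cannot tell whether equal marks mean the same mouse. With the replicate block the count was 1 for genotype in GAT (Dbp, 0.53), and 0 and 2 for depot in wild-type and Azin2-/- mice. Under it Dbp, Tef and Per3 were no longer called in wild-type mice (-0.90, -0.66 and -0.49, adjusted p = 0.225, 0.312 and 0.284), nor in Azin2-/- mice Dbp, Tef, Nr1d1 and Arntl (-1.36, -1.30, -1.23 and 0.55, adjusted p = 0.06, 0.0806, 0.0594 and 0.186), while Per3 and Hlf were. The same libraries without the block, an alternative chosen after seeing the data as was leaving out low-fat replicates 1 and 5 with high-fat replicate 6, gave 2, 0 and 4. The block changed no other count by over 1.5 times.

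Over all genes, the diet comparison called 3622 genes, 8109 without low-fat replicate 1, 621 without muscle-rich libraries, 6701 without the 3 libraries named above, 7999 by limma-voom, 2335 unfiltered, 6056 with all libraries and 5858 with the block. Genotype in GAT called 1136 of 16778 tested genes, 3079 by DESeq2, 6456 by limma-voom, 0 unfiltered and 1723 with the block. Genotype in SAT called 1, 338 by DESeq2, 299 by limma-voom, 13 with all libraries and 0 with the block. Depot called 738 genes in wild-type (1784 by DESeq2, 2479 by limma-voom, 490 unfiltered, 0 with the block) and 2549 in Azin2-/- mice (4387, 6631, 1777 and 889). The difference called 0 of 18033 tested genes, 158 by DESeq2 and 2731 by limma-voom. The 20 against 8 week comparison called 6614, or 4229 with all libraries. With each library left out, the counts over all genes ran from 1802 (without high-fat replicate 4) to 8109 for diet, 0 (without wild-type replicate 2) to 2672 (without Azin2-/- replicate 1) for genotype in GAT, 296 (without GAT replicate 2) to 909 (without GAT replicate 3) for depot in wild-type mice and 36 (without GAT replicate 2) to 3414 (without SAT replicate 1) in Azin2-/- mice.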
